A study of Mus musculus with 2 samples.

Results

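The matricellular genes described here are 10 listed by name, Thbs1, Thbs2, Thbs3, Sparc, Spp1, Tnc, Postn, Ctgf, Cyr61 and Nov, out of 20211 gene symbols measured in primary perivascular cells (PCs) of the mouse aorta. All 10 were found, each on a single row, and all 10 were among the 10068 genes with a mean of at least 1 RPKM over both libraries. RPKM relates the reads of a gene to its transcript length and to the mapped reads of the library, so that levels can be compared between genes. The study asked how the transcriptome of PCs differs without KAI1, the tetraspanin that is encoded by Cd82.

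Both groups were cultured PCs of the C57BL/6 background. The WT group was wild type and the Kai1-/- group, labelled Kai1 KO, came from Kai1 knockout mice, with 1 library each. The methods describe the C57BL/6 mice of the study as adults of either sex, but the age and number of the donors behind each culture were not given in the sources used here, and the labels and the methods give different serum contents for the medium. With 1 library per genotype there is no replicate error, no test was possible, and a difference between the libraries cannot be told apart from one between animals, cultures or library preparations. In such bulk RNA, fewer cells of a type and less RNA per cell cannot be told apart either.

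Matricellular proteins are secreted into the extracellular matrix but do not build it as collagens do. They bind matrix proteins, growth factors, proteases and cell surface receptors, and thereby change how cells attach, spread and respond to growth factors. In the vessel wall, smooth muscle cells and PCs are among their sources, and several members are known to act on endothelial cells. Thrombospondin-1 is a classical inhibitor of angiogenesis, whereas the CCN proteins encoded by Cyr61 and Ctgf can promote the growth of vessels.

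The libraries differed in ways that touch every value below. Cd82 itself had an RPKM of 12.8 in WT and 2.62 in Kai1-/- PCs. The sum of all RPKM values was 884463 in WT and 1238193 in Kai1-/- PCs, and Gapdh stood at 4238 and 5997. A scaling to Gapdh lowers every log2 ratio of Kai1-/- to WT by about 0.50 and a scaling to the same sum by 0.49. Scaled values are given for some genes and counts, and all other values are as deposited. Ratios above 0 therefore shrink or change sign under these scalings, and ratios below 0 grow. The 4 Y-linked genes Ddx3y, Eif2s3y, Kdm5d and Uty were above 0 in the WT library and at 0 in the Kai1-/- library, so the sex of the cells and the genotype cannot be told apart. Steps in the low RPKM values corresponded to about 29500000 reads for WT and 26650000 for Kai1-/-. The 95% intervals below come from these estimated reads and cover counting error only.

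The cells were checked against marker genes. Of 13 mural markers, Acta2 had RPKM values of 3823 in WT and 2580 in Kai1-/- PCs and Pdgfrb 44.7 and 31.6, whereas the pericyte markers Rgs5, Abcc9 and Kcnj8 were at most 0.06 in WT and at most 0.79 in Kai1-/- PCs. The summed level of the 13 markers was 4646 in WT and 2978 in Kai1-/- PCs. Of the 7 that passed the filter on mean RPKM, 4 lay beyond 2-fold on the lower side. They were Mcam (4.90 in WT and 0.26 in Kai1-/- PCs), Myh11 (2.96 and 0.35), Cnn1 (120 and 49.2) and Tagln (633 and 307). Mcam and Myh11 were at low levels in both libraries. As a background for this and the next marker counts, 7.81% of all genes kept passed 2-fold downwards and 7.98% upwards. The 10 fibroblast markers summed to 2688 and 1595, with 4 of the 8 kept more than 2-fold lower, namely Ly6a at 1354 and 569, Pi16 at 1.98 and 0.38, Dpt at 3.06 and 0.78 and Pdgfra at 2.01 and 0.85. Thy1, at 324 and 380, and Col3a1, at 67.5 and 101, were higher in Kai1-/- PCs as deposited, though Thy1 was higher by a smaller factor than Gapdh and the sum of all values. The 16 endothelial markers summed to 46.8 and 29.8, with Eng at 42.0 and 21.4. Of the 16, 6 were at 0 in both libraries, among them Emcn, Cldn5 and Nos3, and 13 in all were at 0 in Kai1-/- PCs. Pecam1, Tek, Erg and Kdr, at only 0.41, 0.41, 0.30 and 0.12 in WT, were at 0 in Kai1-/- PCs. Of the 3 endothelial markers kept, Egfl7 was more than 2-fold higher, at 2.28 and 7.39, and 0 were more than 2-fold lower. Of 15 macrophage markers in the tables, which summed to 40.9 and 19.5, 5 were kept and divided, with Csf1r (11.7 in WT and 2.66 in Kai1-/- PCs), Fcer1g (11.3 and 2.47), Tyrobp (10.4 and 2.37) and Lyz2 (3.44 and 1.09) more than 2-fold lower and Cd14 (1.98 and 10.3) more than 2-fold higher. Emr1, C1qa, C1qb and C1qc were at 0 in both. The 9 osteoblast and chondrocyte markers in the tables summed to 20.4 and 42.4, with Col2a1 at 9.74 in WT and 31.9 in Kai1-/- PCs and Bglap at 2.12 and 0.20. The part of these differences in the values below was not tested.

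The promoters of the members are shown first, since Cyr61 and Ctgf are textbook targets of the transcription factors TEAD and SRF. Windows of the 250 bases before a RefSeq transcription start, from a table of the build GRCm38.p6, were matched for 7 of 10 members in 10 windows. Thbs1, Ctgf and Nov were not matched. The words GGAATG (bound by TEAD), TGANTCA (bound by AP-1), TATAAA and the CArG box of SRF were searched on both strands. Cyr61 was the only matched member with GGAATG, which 12.6% of all 32851 windows of the same length hold. TATAAA was found in 5 of the 7 matched members, and 12.4% of all windows hold it. The 2 figures are not alike, since a member with more than 1 window can match in any of them. The overlapping windows of Tnc hold the same copy. The copies of Thbs2 (from -126, opposite strand), Spp1 (from -211) and Tnc (from -126 or -205) lie farther from the start than those of Cyr61 and Postn. Only the exact word was searched, so variants such as TATATAA, in the last 60 bases of a Tnc window, were not counted. TGANTCA and the CArG box were found in 0 members, against 6.75% and 1.47% of all windows. The window of Cyr61, chr3:145649986-145650235 on the minus strand, is printed because it holds both words, and the last 60 bases of a Postn window, chr3:54361047-54361106 on the plus strand, because they hold TATAAA at nearly the same distance. Capitals mark the words found, GGAATG being read on the opposite strand, and the last base printed is the base before the start.
Cyr61: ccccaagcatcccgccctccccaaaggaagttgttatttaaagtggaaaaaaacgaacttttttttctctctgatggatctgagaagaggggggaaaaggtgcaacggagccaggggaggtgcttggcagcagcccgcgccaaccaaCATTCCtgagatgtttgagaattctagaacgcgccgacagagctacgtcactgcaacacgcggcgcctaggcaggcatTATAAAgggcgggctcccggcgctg
Postn: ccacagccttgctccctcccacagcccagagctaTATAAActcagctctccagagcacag

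In Cyr61, TATAAA starts 25 bases before the start and the GGAATG word lies 103 to 98 bases before it. In Postn, TATAAA starts 26 bases before the start. These are matches of letters in a window and not measured binding sites.

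The members covered a wide range of levels, led by Sparc and Thbs1. In WT PCs the order was Sparc (2261), Thbs1 (818), Ctgf (379), Cyr61 (165), Thbs2 (25.0), Spp1 (22.8), Postn (17.1), Nov (11.6), Thbs3 (10.2) and Tnc (7.83), each as RPKM. Sparc ranked 75th in level of the 10068 genes kept and Thbs1 165th. In Kai1-/- PCs the order was Sparc (1265), Ctgf (249), Thbs1 (185), Cyr61 (81.6), Nov (23.6), Postn (20.7), Spp1 (16.1), Thbs3 (16.1), Thbs2 (15.2) and Tnc (5.20). Thbs1 thus stood above Ctgf in WT and below it in Kai1-/- PCs, Nov moved from rank 8 to rank 5 among the members, and Thbs2 from rank 5 to rank 9. Neighbours in the order whose counting intervals overlapped were Thbs2 and Spp1 in WT PCs, and Spp1 with Thbs3 and Thbs3 with Thbs2 in Kai1-/- PCs.

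**Figure D1:**
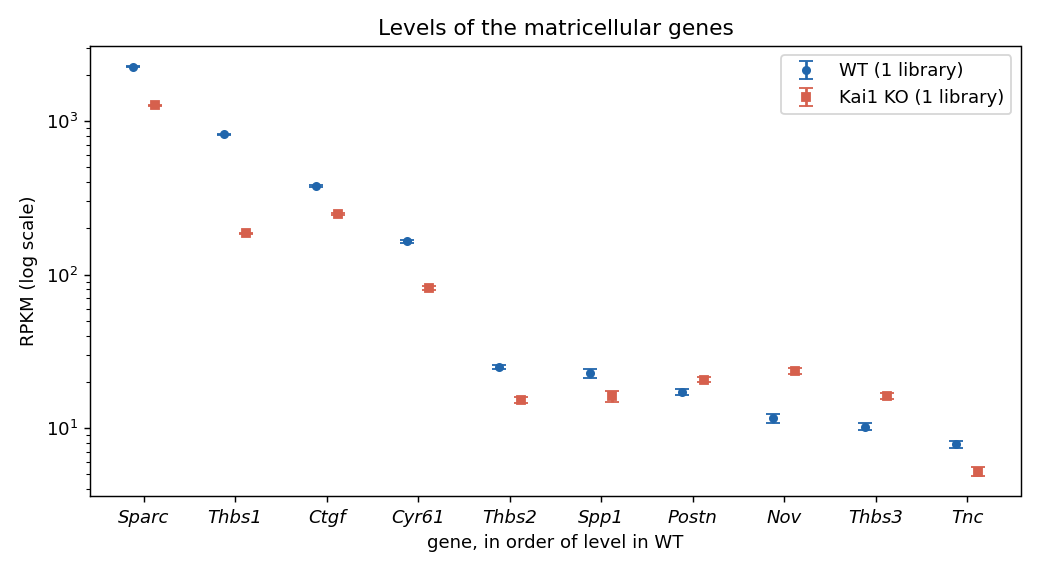
RPKM (log axis) of the 10 matricellular genes in the WT library (circles) and the Kai1-/- library (squares), in order of the WT level; bars, mostly hidden by the points, are 95% counting intervals from estimated reads. Thbs1 shows the widest gap, from 818 to 185, and Postn, Nov and Thbs3 lie higher in Kai1-/- PCs, Postn not so once values are scaled to Gapdh or to the same sum.

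Together the 10 genes had a summed RPKM of 3717 in WT and 1878 in Kai1-/- PCs, which is 0.420% and 0.152% of all RPKM. Sparc made up 60.8% of the members' sum in WT and 67.4% in Kai1-/- PCs, and Thbs1 22.0% and 9.88%. Differences between the libraries are given as log2 ratios of Kai1-/- to WT after 0.1 was added to each RPKM. More than 2-fold lower were 2 of the 10 members, Thbs1 and Cyr61, against 7.81% of the 10068 genes kept, and more than 2-fold higher was 1, Nov, against 7.98%. Cyr61 and Nov both lay close to the 2-fold line, so that these counts of 2 and 1 say little against the background, and Thbs1 alone was far beyond it. The median log2 ratio of the 10 was -0.59, against 0.08 over all genes kept, with 7 members below 0 and 3 above. Scaled to Gapdh or to the same sum, 6 members were more than 2-fold lower and 0 higher, where all genes kept were also shifted, to 18.4% or 18.0% lower and 2.76% or 2.84% higher.

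**Figure D2:**
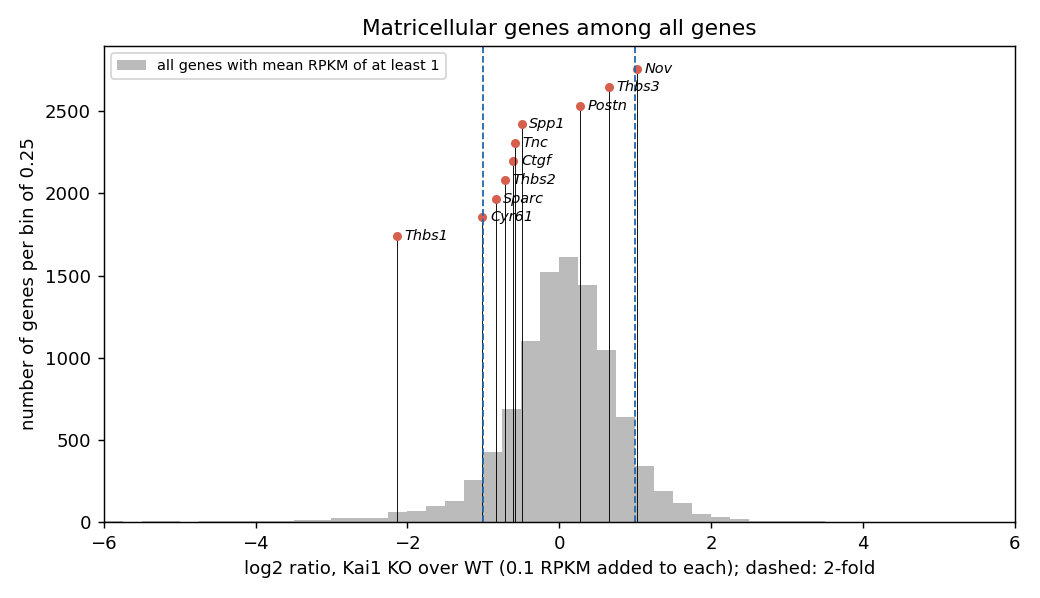
Histogram of the log2 ratio of Kai1-/- to WT over the 10068 genes kept (bins of 0.25, ratios beyond the axis put in the end bins), with each matricellular gene marked at its ratio; the height of a marker has no meaning. Thbs1 lies in the lower tail at -2.14, while 5 members lie between -0.84 and -0.50 and Nov lies at 1.02.

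**Figure D3:**
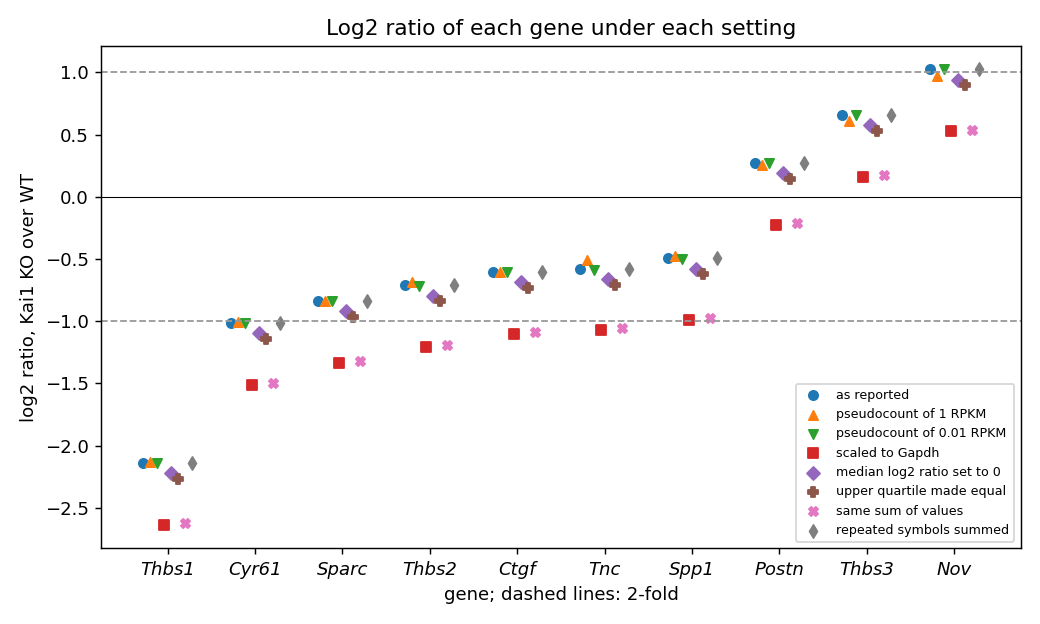
Log2 ratio of Kai1-/- to WT of each matricellular gene as reported and under 7 alternative settings (2 pseudocounts, 4 scalings, repeated symbols summed), with dashed lines at 2-fold. Scaling to Gapdh or to the same sum lowers every gene by about 0.49 to 0.50, which takes Postn below 0. The other settings move the points little, and the sum of repeated symbols cannot move them.

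The thrombospondins are large secreted glycoproteins, and the subgroup of Thbs1 and Thbs2 carries the type 1 repeats known to inhibit angiogenesis. Thbs1 (chromosome 2, 117937612 to 117952869, plus strand, NCBI37) also activates latent TGF-beta and binds CD47 and CD36. It had an RPKM of 818 in WT and 185 in Kai1-/- PCs, 22.7% of WT, or a log2 ratio of -2.14 with a counting interval from -2.16 to -2.12. Only 1.93% of the genes kept had a lower ratio. The ratio of Thbs1 stayed more than 2-fold lower under all 7 alternative settings tried, from -2.64 to -2.14. Of the 7, the sum of repeated symbols could change no member, since each was on a single row. Thbs2 (chromosome 17, 14802507 to 14831269, minus strand) had an RPKM of 25.0 in WT and 15.2 in Kai1-/- PCs, with a log2 ratio of -0.71, with 12.9% of genes lower. Thbs2 passed 2-fold after scaling to Gapdh, at -1.21. Thbs3 (chromosome 3, 89019102 to 89030759, plus strand), which belongs to the subgroup that forms pentamers and lacks type 1 repeats, was higher in Kai1-/- PCs, with an RPKM of 10.2 in WT and 16.1 in Kai1-/- PCs and a log2 ratio of 0.66. Its ratio was 0.16 after scaling to Gapdh. Exons of Thbs3 share 318 bases with Mtx1 on the other strand, whose RPKM was 51.3 in WT and 68.3 in Kai1-/- PCs, and whether the counting used strand was not given. Of the remaining family, Thbs4 was listed at 0 in both libraries and Comp stood at 0.53 and 0.10.

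Ratios between genes within a library do not depend on how the libraries were scaled. The RPKM of Thbs1 was 32.7 times that of Thbs2 in WT and 12.2 times in Kai1-/- PCs, and 80.2 and 11.5 times that of Thbs3. The ratio of Thbs2 to Thbs3 was 2.45 in WT and 0.946 in Kai1-/- PCs, a log2 change of -1.38 ± 0.13 (95% counting interval). The 3 thrombospondins therefore differed unequally between the libraries under any scaling. Thbs1 made up 95.8% of the summed RPKM of the family in WT and 85.5% in Kai1-/- PCs, where the sum was 854 and 217.

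**Figure D4:**
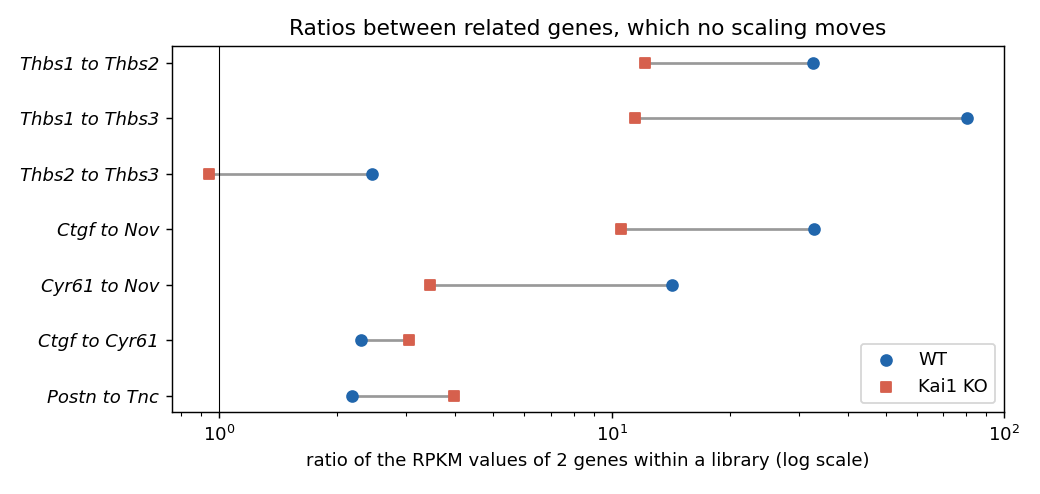
Ratio of the RPKM values of 2 matricellular genes within each library (log axis), for WT (circles) and Kai1-/- PCs (squares); the vertical line marks equal levels. Thbs1 to Thbs3 shows the widest gap, from 80.2 in WT to 11.5 in Kai1-/- PCs, and Thbs2 to Thbs3 falls from 2.45 to 0.946. The counting intervals of Thbs2 and Thbs3 overlap in Kai1-/- PCs, so that ratio is not told apart from equal levels.

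The CCN proteins share a layout of 4 modules, the last of which Wisp2 lacks, and act through integrins and heparan sulfate. Cyr61 (CCN1; chromosome 3, 145309935 to 145312949, minus strand), an immediate early gene whose promoter is shown above, had an RPKM of 165 in WT and 81.6 in Kai1-/- PCs, with a log2 ratio of -1.01 with a counting interval from -1.07 to -0.96, so that counting error alone spans the 2-fold line. Ctgf (CCN2; chromosome 10, 24315248 to 24318489, plus strand), a mediator of matrix production downstream of TGF-beta, had an RPKM of 379 in WT and 249 in Kai1-/- PCs, with a log2 ratio of -0.60, and -1.11 after scaling to Gapdh. Exons of Ctgf share 570 bases with the annotated antisense gene Gm15270, for which the tables hold no value. Nov (CCN3; chromosome 15, 54577257 to 54585594, plus strand), which is known to oppose Ctgf in matrix production, had an RPKM of 11.6 in WT and 23.6 in Kai1-/- PCs, with a log2 ratio of 1.02 with a counting interval from 0.91 to 1.14. Nov was the member with the highest ratio, and 7.43% of genes kept had a higher one. Under 5 of 7 alternative settings Nov was less than 2-fold higher, with a lowest ratio of 0.53 after scaling to Gapdh, but it stayed above 0 under each.

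Within the CCN family the balance differed between the libraries under any scaling. The ratio of Ctgf to Nov was 32.8 in WT and 10.5 in Kai1-/- PCs, and that of Cyr61 to Nov 14.2 and 3.46, log2 changes of -1.63 ± 0.12 and -2.04 ± 0.13 (95% counting intervals). Cyr61 and Ctgf, both lower, differed less from each other, with a ratio of Ctgf to Cyr61 of 2.30 in WT and 3.05 in Kai1-/- PCs. Of the other CCN genes, Wisp2 (CCN5) had an RPKM of 417 in WT and 415 in Kai1-/- PCs and was the most abundant of the family in both, Wisp1 (CCN4) had 20.1 and 8.08, and Wisp3 was listed at 0. Wisp2 made up 42.0% of the summed CCN RPKM in WT and 53.4% in Kai1-/- PCs.

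Sparc (osteonectin; chromosome 11, 55208002 to 55233582, minus strand) is a collagen-binding protein that takes part in the assembly of collagen fibrils. It had an RPKM of 2261 in WT and 1265 in Kai1-/- PCs, 55.9% of WT, or a log2 ratio of -0.84 that became -1.34 after scaling to Gapdh. Of the fibrillar collagen genes in the lists, Col1a1 stood at 57.7% of WT and Col1a2 at 45.7%. Col3a1 stood at 150% (67.5 and 101) and Col2a1 at 328% (9.74 and 31.9). The fibronectin gene Fn1 was at 59.3% and the crosslinking enzyme gene Lox at 58.5%, but Fbn1 was at 89.3% and Vcan at 273%. Among the relatives of Sparc, Fstl1 had an RPKM of 230 in WT and 147 in Kai1-/- PCs. Smoc1, an antagonist of BMP signalling, had 45.8 and 81.9. The ratio of Sparc to Fstl1 was 9.85 in WT and 8.60 in Kai1-/- PCs, and that of Sparc to Smoc1 was 49.3 and 15.4. As log2 changes these were -0.20 for Sparc to Fstl1 and -1.68 for Sparc to Smoc1, and no counting interval was computed for either. Sparcl1 was at 0.28 in WT and listed at 0 in Kai1-/- PCs.

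Spp1, Tnc and Postn, which bind integrins and are known from wound repair and vascular remodelling, were at modest levels in both libraries. Spp1 (osteopontin; chromosome 5, 104864137 to 104870069, plus strand), a phosphoprotein of bone that is also made by macrophages and smooth muscle cells, had an RPKM of 22.8 in WT and 16.1 in Kai1-/- PCs, with a log2 ratio of -0.50 ± 0.15, the widest counting interval of the members. It remained within 2-fold under every alternative setting, from -0.99 to -0.47. Of the 5 macrophage markers kept, 4 were also lower and Cd14 was higher, and their part in the value of Spp1 was not tested. Tnc (tenascin C; chromosome 4, 63620819 to 63681760, minus strand), an anti-adhesive protein of injured tissue, had an RPKM of 7.83 in WT and 5.20 in Kai1-/- PCs, with a log2 ratio of -0.58, and -1.07 after scaling to Gapdh. Exons of Tnc share 176 bases with 8030451A03Rik on the other strand, for which the tables hold no value. Postn (periostin; chromosome 3, 54165031 to 54194961, plus strand), which promotes collagen crosslinking, had an RPKM of 17.1 in WT and 20.7 in Kai1-/- PCs, with a log2 ratio of 0.27. It was the only member whose direction depended on the scaling, at -0.23 after scaling to Gapdh and -0.21 after scaling to the same sum. The ratio of Postn to Tnc, free of scaling, was 2.19 in WT and 3.98 in Kai1-/- PCs.

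Genes around the members in the same pathways were taken from 6 lists. Of the 16 relatives in the thrombospondin, SPARC, CCN and tenascin families and Tgfbi, 7 passed the filter, of which 3 were more than 2-fold lower and 0 higher, with a median log2 ratio of -0.64. Those lower were Wisp1 (-1.30), Tnxb (-1.23), which encodes tenascin X, and Tgfbi (-1.13), a TGF-beta-induced matrix protein. The count of 3 fell to 1 with a pseudocount of 1 RPKM or a mean of at least 5 RPKM, since Tnxb (1.67 and 0.65) and Tgfbi (4.50 and 1.99) are at low levels, and was 5 after scaling to Gapdh or to the same sum. Among the 9 below the filter, Thbs4, Spock1, Spock3, Wisp3, Tnn and Tnr were listed at 0 in both libraries.

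Matricellular proteins act through integrins, CD47, CD36, syndecans and endocytic receptors. Of 23 receptor genes listed, 16 were kept, 3 were more than 2-fold lower and 0 higher, and the median log2 ratio was -0.54. The 3 lower ones as deposited were integrin alpha chains, and the count became 5 with the median of all genes set to 0 or equal upper quartiles, and 8 after scaling to Gapdh or to the same sum. Itgav, the chain through which osteopontin, periostin and CCN proteins are bound, had an RPKM of 24.4 in WT and 8.40 in Kai1-/- PCs, Itga9 had 1.94 and 0.46, and the collagen-binding Itga11 had 8.57 and 2.12. As deposited, Itgb5, which pairs with Itgav, was just short of 2-fold, at 133 and 67.2, as was Itga5, at 78.1 and 40.0. Both pass 2-fold after scaling to Gapdh or to the same sum. The thrombospondin receptor Cd47 lay on the other side, with an RPKM of 11.4 in WT and 21.5 in Kai1-/- PCs (log2 ratio 0.91), and Cd36, the other classical receptor of Thbs1, was listed at 0 in both. Lrp1, the endocytic receptor that clears thrombospondins, had 28.6 and 26.9.

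Growth factor and cytoskeletal programmes known to drive Ctgf, Cyr61 and Thbs1 were described by 3 lists. The part of these programmes in the values of the members was not tested. Of 19 target genes of YAP and TEAD kept, 6 were more than 2-fold lower and 0 higher, with a median log2 ratio of -0.45. The largest differences were those of Igfbp3 (-3.62), an IGF-binding protein, F3 (-2.48), which encodes tissue factor, Nuak2 (-1.32) and Ankrd1 (-1.26). Of the genes of this list kept, 4 were above 0 as deposited, among them Ajuba at 0.65 and Gadd45b at 0.54. Scaling to Gapdh or to the same sum takes away most of the differences of Ajuba and Gadd45b. Of 16 genes that respond to TGF-beta, 4 lay more than 2-fold lower and 0 higher (median -0.77), namely the feedback inhibitor gene Smad7 (-1.73), Ltbp2 (-1.16), Col1a2 (-1.13) and Tagln (-1.04). Of 16 SRF and MRTF targets kept, 5 were more than 2-fold lower and 0 higher (median -0.59), led by Myl9 (-2.53), Fhl2 (-1.63), Cnn1 (-1.28) and Tagln (-1.04). Scaled to Gapdh or to the same sum, the lower genes were 9 in the list of YAP and TEAD, 11 in that of TGF-beta and 10 in that of SRF and MRTF. The immediate early gene Egr1 had an RPKM of 16.6 in WT and 11.1 in Kai1-/- PCs. Tagln and Acta2 stand in more than one list, so the counts are not independent, and the mural markers named above include the same genes.

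Of 17 proteases and matrix partners kept, 1 was more than 2-fold lower and 2 were higher (median -0.72), but 11 were lower and 1 higher after scaling to Gapdh or to the same sum. Tgfb2 had an RPKM of 4.65 in WT and 1.33 in Kai1-/- PCs, while Tgfb1 and Tgfb3, the other ligands whose latent form Thbs1 can activate, had 8.13 and 5.22, and 24.7 and 12.6. The higher genes were Plat, which encodes tissue plasminogen activator, at 8.89 and 26.1, and Vcan, the proteoglycan versican that binds tenascins, at 7.15 and 19.5. Adamts1, a protease that cleaves versican and thrombospondins, had 39.3 and 21.9. As deposited, counts in all these lists are set against the same background of 7.81% lower and 7.98% higher. Scaled counts stand against other shares, 18.4% lower and 2.76% higher with Gapdh, and 18.0% and 2.84% with the same sum. The share lower was 8.98% with the median set to 0 and 9.70% with equal upper quartiles. It was 5.68% with a pseudocount of 1 RPKM and 5.37% with a mean of at least 5 RPKM. Scaling to Gapdh raised the listed genes past 2-fold on the lower side from 21 to 51 of the 88 distinct genes kept.

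**Figure D5:**
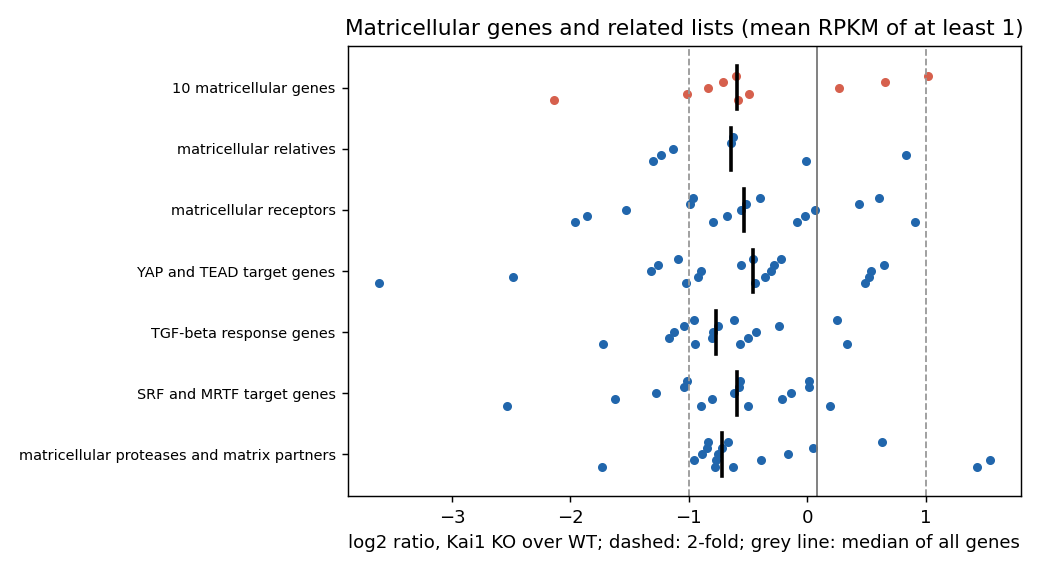
Log2 ratio of Kai1-/- to WT for each gene with a mean RPKM of at least 1 in the 10 matricellular genes and the 6 related lists; short bars are list medians, the grey line is the median of all genes kept (0.08), dashed lines mark 2-fold, and the vertical spread of the points has no meaning. The medians lie between -0.77 and -0.45, and each list holds genes both below and above the grey line.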

How the data were processed

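RNA of WT and Kai1-/- PCs was sequenced, with 1 library each. Per the labels and the methods, the authors aligned reads to mm9 (NCBI37) with TopHat2 2.0.9 and Bowtie, measured RefSeq genes with Cufflinks tools and deposited 1 RPKM value per gene; depth and strand were not given in the sources used here. Of 20462 rows, 38 carried no symbol and were dropped, and symbols on several rows (153, none of them a member) were averaged. Log2 ratios were computed on RPKM + 0.1, and only genes whose mean over both libraries reached 1 RPKM were kept. The members and lists were chosen with earlier results of these data known, and the lists come from general knowledge. All 10 members were named, and of each list the genes past 2-fold with the largest differences, at most 4 in each direction; others named beside them were chosen after their values were seen.

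Reads were estimated from the steps of low RPKM values of genes with 1 annotated transcript of over 800 bases, taking 200 bases as fragment length. At the fitted depths 80.5% (WT) and 80.2% (Kai1-/-) of these values were no more than 0.15 reads from a whole number. Reads per member used its longest transcript in GENCODE M1, whose build NCBIM37 is that of the alignment, and gave 562 to 140064 reads. The estimate of depth and the ratios were tested on simulated data with the same fragment and transcript lengths and counting error only. That checks the computation, but not the assumed lengths or the spread between replicates. Alternatives were 2 pseudocounts, 4 scalings, 2 filters and the sum of repeated symbols. Promoters came from a RefSeq table of GRCm38.p6. Python 3.11.15, numpy 2.4.6, pandas 2.3.3 and matplotlib 3.10.9 were used.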

Additional observations from a re-analysis of the deposited data

How the results depend on the processing

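With 1 library per genotype no test and no leave-one-out were possible, and the values rest on how the libraries were scaled. No paired analysis was possible because the result comes from no test. Of 70 recomputed log2 ratios of members, 68 kept their sign and 13, in 5 members, changed side of the 2-fold line. Those with repeated symbols summed could not change, since each member is on a single row. Each scaling shifts all members by nearly the same amount, so these counts do not measure stability between replicates. The 2 sign changes were those of Postn after scaling to Gapdh (-0.23) and to the same sum (-0.21). The median log2 ratio of the members, -0.59 as deposited, was -1.09 after scaling to Gapdh, -1.07 with the same sum of values, -0.72 with equal upper quartiles and -0.67 with the median of all genes set to 0. After scaling to Gapdh or to the same sum, 6 members were more than 2-fold lower, against 2, since Sparc, Thbs2, Ctgf and Tnc joined Thbs1 and Cyr61. In both scalings 51 genes of the 6 lists were more than 2-fold lower, against 21, and 1 higher, against 2. Under these scalings, the other 2 and a pseudocount of 1 RPKM, 0 members were more than 2-fold higher, against 1, as Nov fell short (0.53 with Gapdh, 0.54 with the same sum, 0.94 with the median, 0.90 with the upper quartile and 0.97 with the pseudocount). These shifts follow from the scaling factors themselves. Counts over all genes kept were 786 lower and 803 higher, but 1856 and 278 after scaling to Gapdh, 1816 and 286 with the same sum, 977 and 594 for equal upper quartiles, and 904 and 657 for a median of 0. Without the filter on mean RPKM they were 1878 and 1205, and with a mean of at least 5 they were 350 and 511. Counting error was at most 0.15 on the log2 scale for any member, and the spread between replicates is unknown.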
